A study of Mus musculus with 18 samples.

Results

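The genes described here are mostly nuclear-encoded subunits of the mitochondrial respiratory chain and ATP synthase. They are described in mouse cortex after spreading depolarization (SD), a slow wave of near-complete depolarization that travels through the grey matter. This family was chosen with earlier results of these data known, so its shares beside all genes are descriptive. Its members were then taken by a name pattern. The pattern takes every gene whose deposited symbol begins with Nduf plus the letter a, b, c, s or v and a digit. It also takes symbols that begin with Uqcr, with Cox4 to Cox8, with Atp5 or with Sdha to Sdhd. This gave 86 of the 13479 genes listed in either system, and all 86 are listed in both systems. By textbook role, 79 are subunits: 35 of complex I, 4 of complex II, 8 of complex III, 17 of complex IV and 15 of complex V. Ndufa4 carries a complex I name but is counted with complex IV, of which it is a subunit. The other 7 are not subunits: Sdhaf1, Sdhaf2, Sdhaf3 and Sdhaf4 are assembly factors of complex II, Cox7a2l helps to join complexes III and IV, Ndufa4l2 is a paralogue of Ndufa4, and Atp5s is a factor associated with ATP synthase.

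Complexes I to IV pass electrons from NADH and succinate to oxygen and, except for complex II, pump protons across the inner mitochondrial membrane. Complex V, the ATP synthase, uses the returning protons to make ATP. Most of that ATP in the cortex pays for ion pumping by neurons, and an SD wave places a heavy load on the pumps, since ion gradients that collapse in the wave have to be rebuilt. Complexes I, III, IV and V also hold subunits encoded by mitochondrial DNA, so the nuclear genes provide only some of the parts.

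Gene expression was measured by RNA-seq in 18 libraries from 12 healthy female mice aged 7 to 8 weeks. In the KCl system, focal KCl set off 4 SDs in 2 h at 30 min intervals in wild-type C57BL/6 mice. In the optogenetic system, as many SDs were evoked by light of 2 mW lasting 20 s. Those mice were C57BL/6 heterozygous for Thy1-ChR2-YFP, in which the Thy1 promoter drives a light-gated cation channel in neurons. The KCl system has 3 libraries from the SD (left) cortex, 3 from the contralateral (right) cortex of the same mice and 3 from wild-type mice given NaCl (sham). The optogenetic system likewise has 3 libraries from the SD (left) cortex, 3 from the contralateral cortex and 3 from sham mice of the same genotype. The SD side is the left one in every mouse, so SD, its stimulus and hemisphere cannot be told apart within mice. The side taken from sham mice and the time of tissue collection are not given in the sources used here.

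The deposited values are FPKM, fragments scaled to transcript length and to library size, so levels can be compared between genes. The listed FPKM of a library summed to 223564 to 237318 (KCl system) or 217205 to 225813 (optogenetic system). The 86 genes made up 2.11% to 2.30% of the KCl-system sums and 2.16% to 2.31% of the optogenetic ones. No read counts are given, so the depth is unknown. Marker lists were looked up: all 7 neuron markers were listed and summed to 871 to 1074 FPKM per library. Most of the 7 are general neuron markers, so their sum cannot tell cortex from neighbouring grey matter. Markers of neighbouring tissue varied widely. The 5 striatum markers summed to 39.7 to 281 FPKM, and the 5 choroid plexus markers summed to 3.85 to 1125 FPKM.

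The subunit genes were expressed at steady and mostly high levels. Over the 18 libraries, 13 of the 86 averaged above 100 FPKM, 65 averaged 5 to 100 FPKM and 8 averaged below 5 FPKM. Reads of some genes are hard to assign: 13 of the 86 have a near-identical copy elsewhere in the annotation, and 32 share exon positions with another annotated gene, among them Ndufs3, Ndufs6, Cox5a and Cox6c. In 62 of the 86, the highest library was less than 1.5 times the lowest one. The median of this ratio was 1.32 over the genes with no library at 0, and the lowest was 1.15, for Sdha, the catalytic flavoprotein of complex II.

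Complex I has a peripheral arm that takes electrons from NADH (the N module) and hands them to ubiquinone (the Q module), and a membrane arm that pumps protons (the P module). Among the 35 complex I subunits listed here, mean levels were highest for Ndufb9, an accessory subunit of the membrane arm, at 114 FPKM. They were lowest for Ndufb2, another membrane-arm subunit, at 6.92 FPKM. Ndufs1, the large iron-sulfur subunit that carries electrons through the N module, averaged 16.97 FPKM, and Ndufv1, which binds NADH, averaged 21.6 FPKM. In complex II, which oxidizes succinate in the tricarboxylic acid (TCA) cycle, Sdha averaged 85.7 FPKM, Sdhd 53.4 FPKM, Sdhb 39.4 FPKM and Sdhc 18.8 FPKM. Sdhb holds the iron-sulfur clusters, and Sdhc and Sdhd anchor the complex in the membrane. The 4 subunits of complex II were thus not at equal FPKM, with Sdha above Sdhc by more than the range of either over the 18 libraries (80.8 to 93.4 FPKM for Sdha and 16.2 to 20.6 FPKM for Sdhc). Sdhaf3 was the lowest of the complex II genes, at 3.05 FPKM.

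In complex III, which passes electrons from ubiquinol to cytochrome c, the small subunit Uqcr10 was the highest listed gene at 109.8 FPKM. The core protein Uqcrc1 was the lowest listed one at 32.8 FPKM. The Rieske iron-sulfur protein Uqcrfs1 averaged 68.4 FPKM. Complex IV, cytochrome c oxidase, held the highest genes of the whole list: Cox8a at 322 FPKM, Cox6b1 at 232 FPKM and Cox6a1 at 214 FPKM. In complex V, the catalytic head subunits Atp5a1 (alpha) and Atp5b (beta) averaged 172 and 155 FPKM, against 22.9 FPKM for Atp5e (epsilon), also of the head. The c-ring, the rotor through which protons return, is encoded by 3 genes with the same mature protein, and Atp5g3 averaged 59.5 FPKM, Atp5g2 26.6 FPKM and Atp5g1 14.5 FPKM.

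Complex IV has isoform genes that are used in different tissues, and in every pair the general or brain form was far above the other. Cox4i1 averaged 117 FPKM, against 1.497 FPKM for Cox4i2, best known from lung. Cox6b1 averaged 232 FPKM, against 1.13 FPKM for Cox6b2, known from testis. The heart and muscle forms Cox6a2, Cox7a1 and Cox8b averaged 8.98, 3.30 and 1.502 FPKM, against 214 FPKM for Cox6a1, 99.2 FPKM for Cox7a2 and 322 FPKM for Cox8a. Ndufa4 averaged 66.0 FPKM, against 1.73 FPKM for Ndufa4l2, known as a gene induced by low oxygen. Cox7b2, known from testis, averaged 0.461 FPKM, with KCl SD replicate 3 among the libraries listed at 0, and was the only one of the 86 below the filter of 0.5 FPKM in fits of either system.

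**Figure D1:**
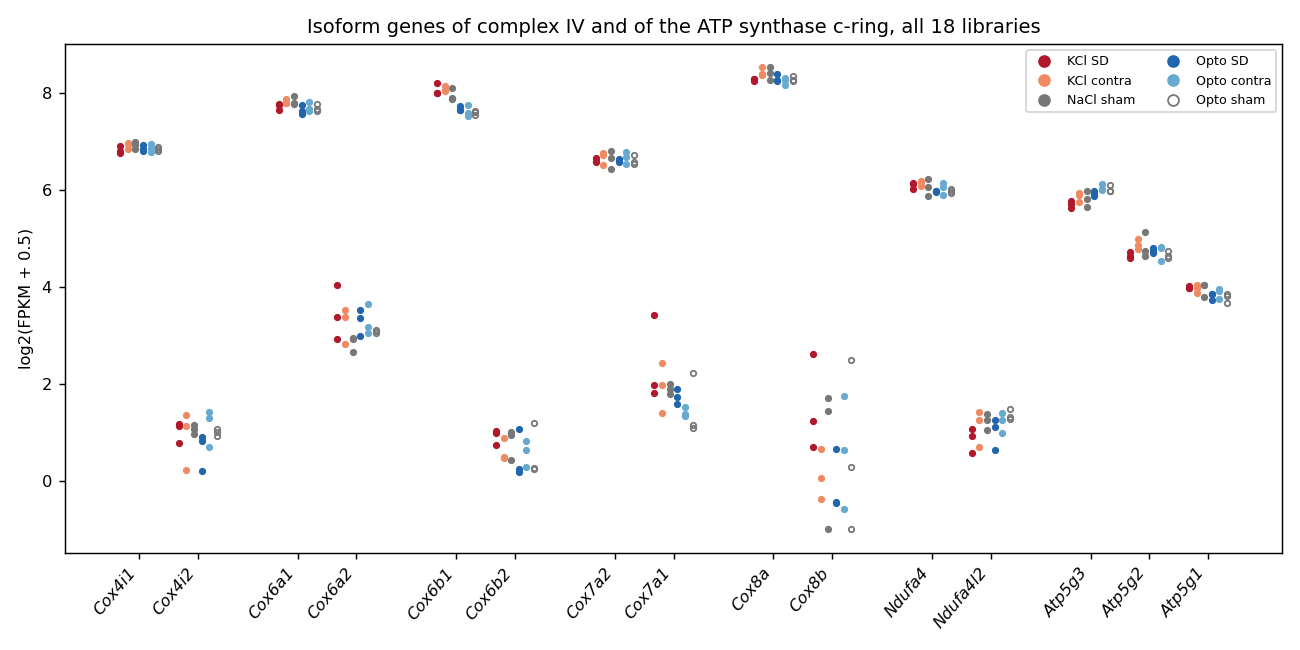
log2(FPKM + 0.5) of isoform genes of complex IV and of the ATP synthase c-ring in 18 libraries, grouped by pair, with 1 point per library coloured by group. Cox4i1, Cox6a1, Cox6b1, Cox7a2, Cox8a and Ndufa4 lie in tight clusters above their tissue isoforms, and Cox8b spreads widely, with libraries listed at 0 and one at 5.67 FPKM.

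The low isoforms were also the most variable genes. Cox7a1 had 3.45, 10.2 and 3.004 FPKM in the KCl SD libraries, 3.46, 2.15 and 4.89 FPKM in the KCl contralateral libraries and 3.51, 3.24 and 2.96 FPKM in the NaCl sham libraries. KCl SD replicate 2 alone was high. The same library held the highest Cox6a2 of all 18 (16.1 FPKM) and the highest Cox8b (5.67 FPKM). It also had the highest level of the muscle list, of which only 1 of 5 markers was listed (10.6 FPKM, against 3.61 to 5.92 FPKM in the other libraries), while Ckm, Myh4, Tnnt3 and Mylpf were not listed. The next highest Cox8b, 5.14 FPKM, was in optogenetic sham replicate 3. That library had the highest choroid plexus marker sum of all 18 (1125 FPKM) and 4.28 FPKM of the listed muscle marker. NaCl sham replicate 3 and optogenetic sham replicate 2, with Cox8b listed at 0, had choroid plexus sums of 11.4 and 3.85 FPKM. In KCl SD replicate 2 that sum was 590 FPKM. The parts of muscle and choroid plexus RNA in these values were not tested.

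Summed by complex, the subunits differed little between groups. Complex I subunits summed to 1749, 1652 and 1602 FPKM in the KCl SD libraries, 1794, 1769 and 1676 FPKM in the KCl contralateral libraries and 1807, 1642 and 1605 FPKM in the NaCl sham libraries. The optogenetic sums were 1629.6, 1641 and 1602 FPKM in SD libraries, 1797, 1644 and 1600.3 FPKM in contralateral libraries and 1589, 1639 and 1684 FPKM in sham libraries. The groups of each system overlapped, and NaCl sham replicate 1 and optogenetic contralateral replicate 1 were the highest libraries of their systems. All 79 subunits together averaged 4884 ± 187 FPKM in KCl SD, 5072 ± 181 FPKM in KCl contralateral and 4900.4 ± 338 FPKM in NaCl sham cortex (SD, the standard deviation here, n = 3 each). The corresponding sums were 4673 ± 83.0 FPKM in optogenetic SD, 4801 ± 240.5 FPKM in optogenetic contralateral and 4689 ± 123 FPKM in optogenetic sham cortex.

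The summed level of the 8 listed complex III subunits was lower on the SD side of every mouse. This pattern was picked after the values were seen and not tested. The 8 genes summed to 575, 567 and 549 FPKM on the SD side of the KCl mice, against 599.6, 612 and 566 FPKM on the contralateral side. On the SD side of the optogenetic mice they summed to 563, 547 and 534 FPKM, against 607, 574 and 557 FPKM on the contralateral side. Libraries of different mice overlapped, and of the 8 genes 3 were lower in 6 of 6 mice. The sums of the other complexes were not lower in every mouse: in optogenetic mouse 3, complex I summed to 1602 FPKM on the SD side and 1600.3 FPKM on the contralateral side. In a bulk sample, fewer cells of a type and less RNA per cell cannot be told apart.

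**Figure D2:**
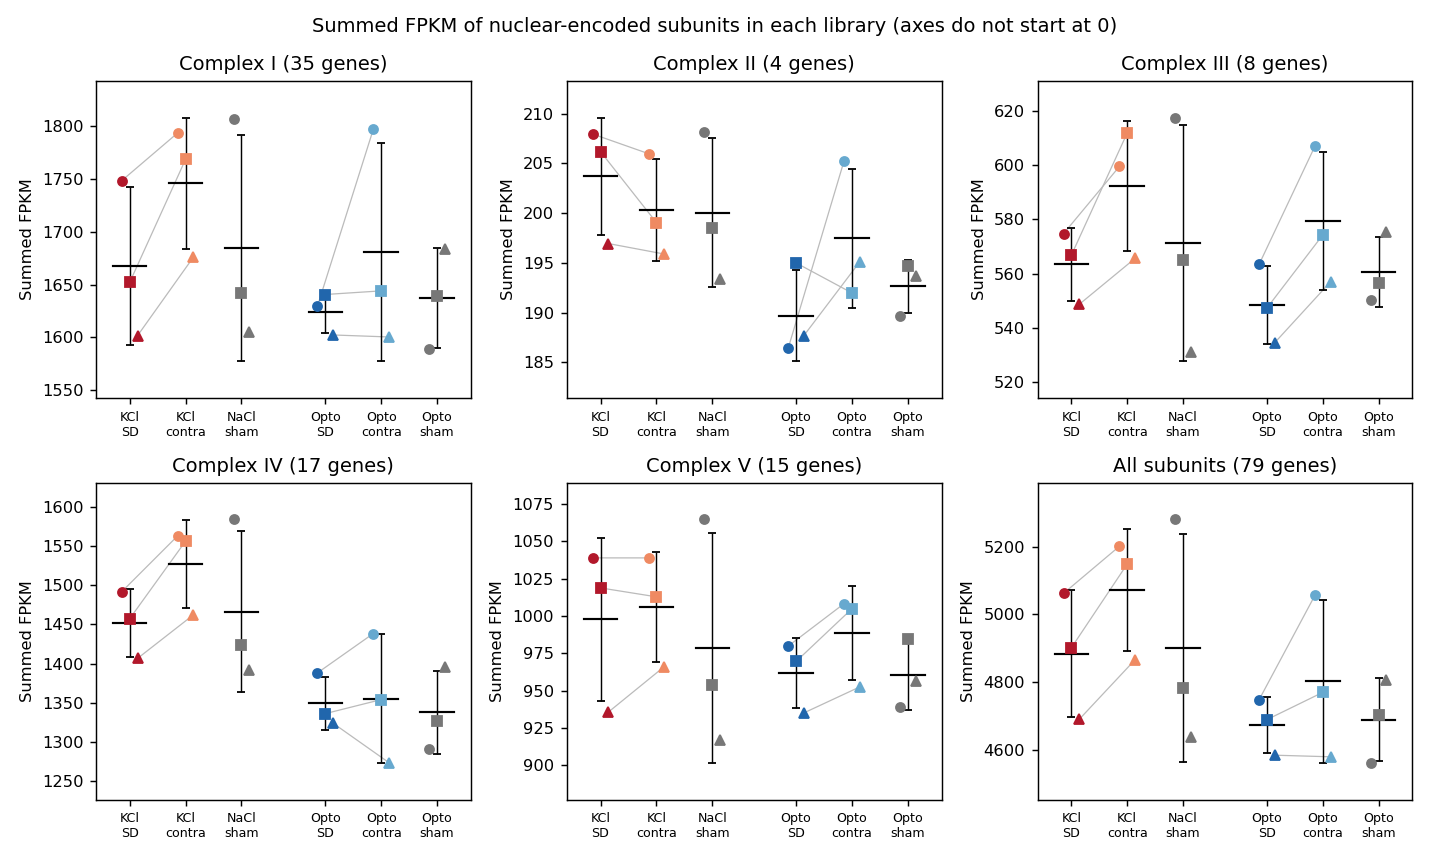
Summed FPKM of the listed nuclear-encoded subunits of each complex and of all 79 listed subunits in each library, by group. Symbols mark replicate numbers, black bars the mean and SD (n = 3), and grey lines join the sides of 1 mouse. In the panel of all subunits, NaCl sham replicate 1 is the highest of 18 libraries, and the groups of each system overlap.

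The first comparison asked what SD changes relative to sham. In the KCl system no member was called by limma at a Benjamini-Hochberg adjusted p under 0.05 over 12972 genes, of which 0.0694% were called (0.054% higher and 0.0154% lower). At an unadjusted p under 0.05, 2 of the 85 members tested were lower and 1 was higher, against 5.49% and 2.44% of all genes. The authors' deposited table likewise has 0 members at q under 0.05 in this comparison. Ndufs6, a zinc-binding accessory subunit of the N module, had the smallest p. It had 34.3, 35.2 and 32.1 FPKM in the KCl SD libraries, against 39.4, 37.3 and 41.5 FPKM in the NaCl sham libraries (log2 difference -0.21 ± 0.074 (SE), limma adjusted p = 0.537). Cox6c, a small subunit of complex IV, had 39.0, 39.0 and 35.8 FPKM in KCl SD, against 28.0, 27.6 and 33.0 FPKM in NaCl sham libraries (log2 difference 0.36 ± 0.13, limma adjusted p = 0.551). For both genes the groups did not overlap. In all, groups did not overlap for 5 lower and 2 higher members, against 8.54% and 4.42% of all genes. Members below 0 were 54.1%, against 59.1% of all genes, and the median log2 difference was -0.019 over members and -0.027 over all genes. Without NaCl sham replicate 1 the member median was 0.037.

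In the optogenetic system no member was called against sham either, while 0.477% of 13001 genes were called (0.408% higher and 0.0692% lower). By limma at an unadjusted p under 0.05, 4 members were lower and 1 was higher, against 5.01% and 3.72% of all genes, and 0 members had q under 0.05 in the authors' deposited table. SD and sham libraries did not overlap for 10 lower and 2 higher members, against 8.51% and 6.04% of all genes. Members below 0 were 61.2%, against 56.2% of all genes, and the median was -0.017 over both. Ndufa11, an accessory subunit of the membrane arm, had 18.5, 18.2 and 17.2 FPKM in SD libraries, against 20.2, 20.0 and 20.7 FPKM in sham libraries (log2 difference -0.17 ± 0.058, limma adjusted p = 0.459). Ndufa12, an accessory subunit of the N module, had 55.2, 35.5 and 54.2 FPKM in SD libraries, against 31.6, 31.5 and 42.7 FPKM in sham libraries (log2 difference 0.44 ± 0.18, limma adjusted p = 0.558). Its 18 libraries ranged from 31.5 to 69.2 FPKM and 1 other annotated gene matched its longest coding transcript over at least 300 bases at 95% identity or more.

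The second comparison set the SD side against the other side. No member was called in the KCl system, while 0.347% of all genes were (0.316% higher and 0.0308% lower). By limma at an unadjusted p under 0.05, 6 members were lower and 2 higher, against 6.02% and 3.85% of all genes. This fit ignores that the sides share mice. With the mouse as a block, 13 members were lower in a fit of these 6 libraries, and 8 in a fit of all 9 with the replicate number as the block, while the 6 libraries without a block also gave 13. The count was 2 without SD replicate 3 or contralateral replicate 1, and 10 without NaCl sham replicate 1. No share over all genes is given for alternative fits, here or below, so their counts show only how the number of members moved. The authors' deposited table has 0 members at q under 0.05. Groups did not overlap for 15 lower and 3 higher members, against 11% and 6.28% of all genes. Among optogenetic libraries 0 members were called, against 0.531% of all genes (0.477% higher and 0.0538% lower), with 7 members lower and 0 higher at an unadjusted p under 0.05, against 5.42% and 3.3% of all genes. With the mouse as a block, 11 were lower in a fit of 6 libraries, and 7 in a fit of 9 with the number as the block. Median-of-ratios scaling gave 3 and quantile normalization 11, and the count was 3 without SD replicate 3, 4 without contralateral replicate 1 and 15 without contralateral replicate 3. Groups did not overlap for 11 lower members and 1 higher member, against 9.67% and 5.26%, and again 0 members had q under 0.05 in the authors' deposited table. The member median was -0.061 for KCl libraries and -0.051 for optogenetic libraries, beside -0.023 over all genes in each. Leaving out 1 library gave medians of -0.091 to -0.039 for KCl libraries, the ends without SD replicate 1 and without SD replicate 3. For optogenetic libraries they were -0.085 without contralateral replicate 3 to -0.016 without contralateral replicate 1. Of the members tested, 74.1% and 81.2% were below 0, against 57.3% and 58.3% of all genes.

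Sdha went the other way in the KCl system. It had 91.4, 93.4 and 89.8 FPKM in the SD libraries, against 86.9, 85.7 and 83.6 FPKM in the contralateral libraries and 89.3, 86.4 and 85.9 FPKM in the sham libraries. The SD libraries lay above both other groups without overlap, yet the log2 difference from the contralateral side was 0.10 ± 0.040 (limma adjusted p = 0.466). Among the optogenetic mice Sdha had 80.8, 84.6 and 83.0 FPKM in SD libraries, against 86.5, 83.0 and 82.8 FPKM in contralateral libraries, which overlapped.

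Between the contralateral side of stimulated mice and sham mice, most members lay above 0, but the medians depended on single libraries. The member median was 0.040 for KCl libraries and 0.037 for optogenetic libraries, beside -0.0061 and 0.0058 over all genes. Leaving out 1 library gave 0.0017 (without NaCl sham replicate 3) to 0.086 (without NaCl sham replicate 1) in the KCl system, and -0.0011 (without contralateral replicate 1) to 0.061 (without contralateral replicate 3) in the optogenetic one. No member was called in either, against 0.00771% and 0.00769% of all genes. At an unadjusted p under 0.05, limma had 3 members higher and 0 lower in the KCl system, against 2.41% and 3.19% of all genes, and 1 higher and 0 lower in the optogenetic system, against 3.38% and 2.42%. Without NaCl sham replicate 1 the KCl count was 18 higher, and leaving out other single libraries gave 1 to 6. For these fits no share over all genes is given. The optogenetic count was 0 to 5 higher when 1 library was left out, the most without contralateral replicate 3. In the KCl system groups did not overlap for 3 higher and 2 lower members, against 4.87% and 5.87% of all genes, and in the optogenetic system for 4 higher and 0 lower members, against 6.58% and 4.33%. Members below 0 were 27.1% and 21.2%, against 52.3% and 48% of all genes. The authors' deposited table has 0 members at q under 0.05 in both. Uqcrb, a small subunit of complex III next to the ubiquinone site, had the smallest p in both systems: 96.7, 97.1 and 93.6 FPKM in KCl contralateral libraries, against 84.9, 89.9 and 74.3 FPKM in NaCl sham libraries (log2 difference 0.21 ± 0.066, limma adjusted p = 0.877). In the optogenetic system it had 90.4, 83.5 and 78.5 FPKM in contralateral libraries, against 71.5, 75.3 and 81.1 FPKM in sham libraries (log2 difference 0.15 ± 0.063, limma adjusted p = 0.843). Uqcrb matches 3 other annotated genes over at least 300 bases at 95% identity or more, so its reads may be split among copies. The contralateral libraries enter both this comparison and the one between the sides, so the opposite signs of the member medians are not independent.

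Each left library has a right library from the same mouse, which allows a comparison within the 6 stimulated mice of both systems, with the mouse as a block in limma. Here Ndufa6 was lower on the SD side, the only one of the 86 members to be called, against 1.53% of 12894 genes called, 0.489% lower and 1.04% higher. Ndufa6 is an accessory subunit of the complex I peripheral arm that holds a mitochondrial acyl carrier protein on the complex. The gene lies on chromosome 15 of GRCm38 at 82350139 to 82354291, minus strand, in the deposited annotation. No exon of another GENCODE M21 gene overlaps its exons, and no other annotated transcript matches it over 300 bases at 95% identity. Ndufa6 had 80.0, 80.2 and 76.9 FPKM in KCl SD libraries, 91.1, 94.9 and 87.7 FPKM in KCl contralateral libraries and 86.4, 86.2 and 85.6 FPKM in NaCl sham libraries. In the optogenetic system it had 86.8, 85.7 and 86.8 FPKM in SD libraries, 98.7, 92.7 and 92.3 FPKM in contralateral libraries and 95.04, 95.2 and 93.8 FPKM in sham libraries. In both systems the SD libraries were below both other groups without overlap.

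Over the 6 mice Ndufa6 averaged 82.7 ± 4.24 FPKM on the SD side and 92.9 ± 3.67 FPKM on the contralateral side (SD, n = 6), a log2 difference of -0.17 ± 0.024 (limma adjusted p = 0.0260), lower in 6 of 6 mice. The call is a narrow one. The adjusted p over the alternatives ran from 0.0109 to 0.101, and 6 of 14 alternatives kept it under 0.05. Leaving out any 1 of the 6 mice gave 0.0736 to 0.0974 in fits of 5 mice, with log2 differences of -0.18 to -0.15. Within single systems, limma gave adjusted p = 0.139 for KCl SD against contralateral (log2 difference -0.21 ± 0.044), 0.551 for KCl SD against NaCl sham (-0.12 ± 0.044), 0.345 for optogenetic SD against contralateral (-0.13 ± 0.038) and 0.360 for optogenetic SD against sham (-0.13 ± 0.038). In the authors' deposited table the smallest Ndufa6 q is 0.219, for optogenetic SD against sham.

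Promoters of nuclear subunit genes are known for sites of the nuclear respiratory factors, the ETS factor GABP (also called NRF2) and YY1. RefSeq windows on GRCm38.p6 from 250 bases before to 50 bases after the start site were matched by symbol for 70 of the 86 members, 75 windows in all, and searched on both strands. The NRF1 core GCATGCGC was in 10 of the 75 windows (13.3%), against 2.71% of all 32851 windows. The ETS core CCGGAAG was in 19 (25.3%), against 8.86%, and the YY1 core AAGATGGCG in 7 (9.3%), against 1.4%. The cyclic AMP response element TGACGTCA was in 4 (5.3%), against 1.79%, and the AP-1 letters TGACTCA in 6 (8.0%), against 5.2%. The windows of the 3 members with the smallest p in the comparison within the 6 mice are shown, to set the promoter of Ndufa6 beside the next ones: Ndufa6 at chr15:82354242-82354541, minus strand, Atp5g3 at chr2:73911277-73911576, minus strand, and Cox5a at chr9:57520982-57521281, plus strand. Capitals mark a match to any of the 5 motifs.
Ndufa6: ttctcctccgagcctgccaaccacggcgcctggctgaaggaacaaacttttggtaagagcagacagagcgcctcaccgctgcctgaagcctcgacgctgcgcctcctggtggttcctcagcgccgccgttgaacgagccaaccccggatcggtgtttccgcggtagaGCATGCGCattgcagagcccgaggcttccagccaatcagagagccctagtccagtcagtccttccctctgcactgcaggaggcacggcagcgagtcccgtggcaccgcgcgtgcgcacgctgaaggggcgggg
Atp5g3: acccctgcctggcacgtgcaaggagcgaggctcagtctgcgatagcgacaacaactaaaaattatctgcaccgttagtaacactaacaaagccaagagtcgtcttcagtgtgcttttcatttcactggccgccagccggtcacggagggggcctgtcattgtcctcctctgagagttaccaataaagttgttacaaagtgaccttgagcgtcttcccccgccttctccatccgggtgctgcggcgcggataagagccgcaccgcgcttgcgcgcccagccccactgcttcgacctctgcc
Cox5a: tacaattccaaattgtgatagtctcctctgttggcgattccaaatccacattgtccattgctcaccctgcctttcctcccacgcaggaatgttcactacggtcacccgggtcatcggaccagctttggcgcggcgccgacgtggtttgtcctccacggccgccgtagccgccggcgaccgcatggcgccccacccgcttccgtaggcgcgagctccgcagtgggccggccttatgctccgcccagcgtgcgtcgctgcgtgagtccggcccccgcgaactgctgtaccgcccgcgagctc
The Ndufa6 window holds 1 NRF1 core, and none of the 5 motifs is in the Atp5g3 and Cox5a windows. None was found in the Sdhaf4 window either, and the Ndufs3 window holds 2 ETS cores. Letters in a window are a description and not evidence of binding.

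Around Ndufa6, small differences of the same sign were common: 22 members were lower at an unadjusted p under 0.05 within the 6 mice and 0 were higher (25.6% and 0%, Ndufa6 included, of the 86, against 10.2% and 4.87% of all genes). With median-of-ratios scaling the counts were 13 lower and 1 higher, for which no share over all genes is given. Of the 86, 68 lay below 0 (79.1%, against 60% of all genes), and the median log2 difference was -0.059, beside -0.021 over all genes. Lower in 6 of 6 mice were 19 members (22.1%, against 6.78% of all genes), and 0 were higher in 6 of 6 (against 3.37%). By complex, the medians were -0.060 for complex I, -0.047 for complex II, -0.068 for complex III, -0.045 for complex IV and -0.026 for complex V subunits. The 7 genes that are not subunits had a median of -0.10, all below 0.

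In complex I, 10 of 35 subunits were lower in 6 of 6 mice: Ndufa2, Ndufa5, Ndufa6, Ndufa9, Ndufa11, Ndufb6, Ndufb8, Ndufb11, Ndufc2 and Ndufs3. They belong to all 3 modules, and the module medians were -0.066 (N, 10 genes), -0.073 (Q, 6 genes) and -0.054 (P, 19 genes). Ndufs3, a core subunit of the Q module, had 26.4, 28.9 and 26.7 FPKM in KCl SD libraries, against 32.4, 30.9 and 29.3 FPKM in KCl contralateral libraries. In the optogenetic mice it had 32.3, 30.3 and 30.3 FPKM on the SD side, against 34.9, 33.2 and 31.4 FPKM on the contralateral side (log2 difference over 6 mice -0.14 ± 0.034, limma adjusted p = 0.139). Core subunits of the N module that carry the electrons were near 0, at -0.0037 ± 0.040 for Ndufs1 and 0.015 ± 0.048 for Ndufv1 (limma adjusted p = 0.982 and 0.923).

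In complex III, Uqcrb, Uqcr10 and Uqcrfs1 were lower in 6 of 6 mice. Uqcrb had 91.9, 88.6 and 88.2 FPKM in KCl SD and 79.3, 75.4 and 75.8 FPKM in optogenetic SD libraries, each below the contralateral library of its mouse (log2 difference -0.11 ± 0.026, limma adjusted p = 0.119). For Uqcrfs1 the log2 difference was -0.076 ± 0.026 (limma adjusted p = 0.243), whereas the core protein Uqcrc1 stood at 0.0075 ± 0.030 (limma adjusted p = 0.940).

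In complex IV, Cox5a and Cox6a1 were lower in 6 of 6 mice. Cox5a, one of the subunits that cap the matrix side of the enzyme, had 35.3, 36.2 and 33.0 FPKM in KCl SD libraries, against 41.3, 40.0 and 37.7 FPKM in KCl contralateral libraries. In the optogenetic mice it had 32.6, 36.4 and 34.6 FPKM on the SD side, against 41.0, 39.5 and 36.5 FPKM on the contralateral side. The sides did not overlap within either system, and over 6 mice the log2 difference was -0.18 ± 0.039 (limma adjusted p = 0.10). Cox5a overlapped sham in the KCl system (34.5, 37.9 and 35.8 FPKM) but not in the optogenetic system (37.4, 38.9 and 37.6 FPKM). In complex V, Atp5g3 and Atp5e were lower in 6 of 6 mice. Atp5g3 had 52.4, 54.0 and 49.5 FPKM in KCl SD libraries, against 61.2, 59.5 and 53.2 FPKM in KCl contralateral libraries. On the optogenetic side it had 62.5, 60.3 and 58.0 FPKM in SD libraries, against 69.0, 63.3 and 64.5 FPKM in contralateral libraries (log2 difference over 6 mice -0.14 ± 0.027, limma adjusted p = 0.0773). The sides of each mouse differed the same way, although KCl SD replicate 2 was above KCl contralateral replicate 3. The head subunits Atp5a1 and Atp5b stood at -0.032 ± 0.026 and -0.025 ± 0.030 (limma adjusted p = 0.623 and 0.747). Among complex II genes, Sdhc and the assembly factor Sdhaf2 were lower in 6 of 6 mice, while Sdhaf4, another assembly factor, was lower in 5 of 6 (log2 difference -0.19 ± 0.044, limma adjusted p = 0.110).

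**Figure D3:**
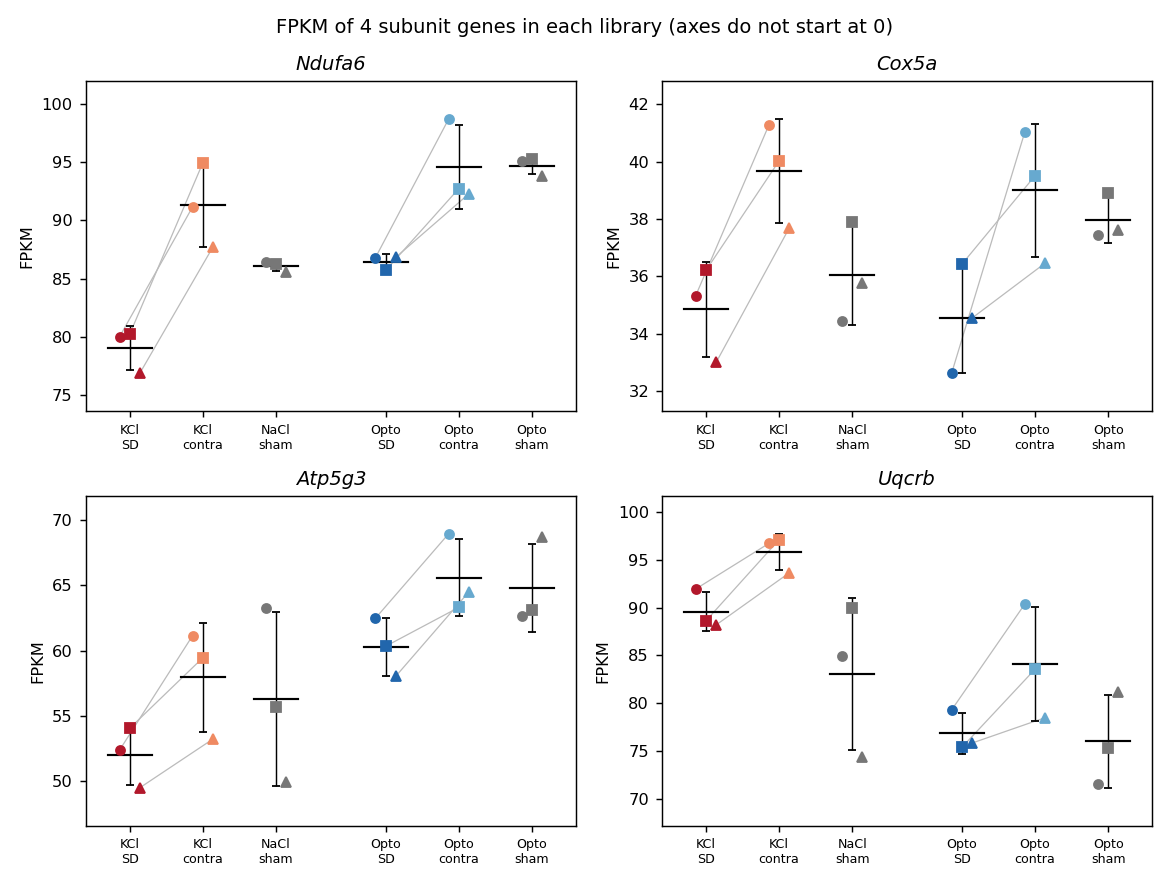
FPKM of Ndufa6 (complex I), Cox5a (complex IV), Atp5g3 (complex V) and Uqcrb (complex III) in each library by group. Symbols mark replicate numbers, black bars the mean and SD (n = 3), and grey lines join the sides of 1 mouse. Every grey line rises toward the contralateral side, and only for Ndufa6 do the SD libraries lie below sham in both systems without overlap.

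**Figure D4:**
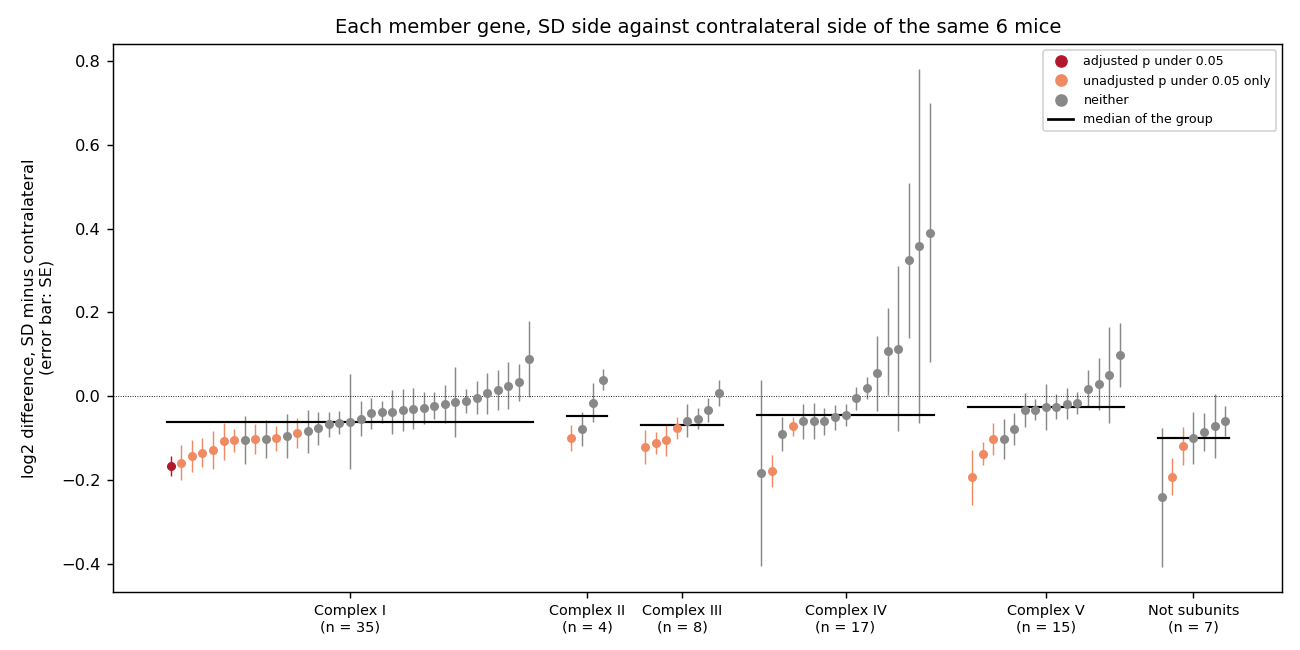
log2 difference between the SD and contralateral sides of 6 mice for each of the 86 members, ordered within complex, with the SE from limma. Ndufa6 is the single filled dark red point (adjusted p = 0.0260), orange points have an unadjusted p under 0.05, and black lines are group medians between -0.10 and -0.026.

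Transcript length moved with these differences when averaged over the 6 mice, though not in every mouse. The members are short genes: the median length of the longest coding transcript (GENCODE M21) was 870.0 bases, against 3260.0 bases in all other genes. The 600 other genes with transcripts under 1 kb had a median log2 side difference of -0.056, close to the -0.059 of the members. The median was -0.046 for 2380 other genes of 1 to 2 kb, -0.022 for 5077 genes of 2 to 4 kb and -0.0064 for 4684 genes of 4 kb or more. In optogenetic mouse 3 this order was not kept, with -0.0070 under 1 kb and -0.021 at 4 kb or more. Of the other genes under 1 kb, 71.2% lay below 0 and 8.17% were lower in 6 of 6 mice, against 79.1% and 22.1% of the members. Within the members, the 50 under 1 kb had a median of -0.060 and the 36 longer ones -0.053. The part of length in the member differences was not tested.

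The member median was below 0 in each of the 6 mice, at -0.045, -0.043 and -0.061 in the KCl mice and -0.11, -0.029 and -0.0080 in the optogenetic mice. For other genes under 1 kb the medians in the same mice were -0.052, -0.089, -0.059, -0.11, -0.011 and -0.0070. Both sets were lowest in optogenetic mouse 1 and nearest 0 in optogenetic mouse 3. The median over striatum markers differed between the sides by 2.84 and 2.89 in KCl mice 2 and 3 and by -0.18 in KCl mouse 1, and by -0.52, -0.52 and -1.13 in the optogenetic mice. Member medians were below 0 in mice with striatum markers higher on the SD side and in mice with them lower. The part of striatal tissue in the member differences was not tested.

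Medians over some marker lists of other cells also lay below 0 in most mice, as did the median over all genes. Of all genes, 60% lay below 0, and at an unadjusted p under 0.05 by limma 10.2% were lower and 4.87% higher. The list median was below 0 in 5 of 6 mice for red blood cell, oligodendrocyte, microglia and endothelium markers. It was below 0 in 4 mice for astrocyte markers, in 2 for neuron markers and in 6 over all genes. Against sham, the astrocyte marker Gja1 was called lower in optogenetic SD libraries (log2 difference -0.50 ± 0.078, limma adjusted p = 0.0319). It was the 1 astrocyte marker of 5 called there, where 0.0692% of all genes were called lower. The red blood cell markers, 5 of 5 listed, all lay below 0 within the 6 mice (median -0.20), with 0 called by limma and 3 lower at an unadjusted p under 0.05. They summed to 328 to 565 FPKM on the SD side and 397 to 578 FPKM on the contralateral side of the KCl mice, and to 204 to 324 FPKM on the SD side and 253 to 399 FPKM on the contralateral side of the optogenetic mice. The 5 oligodendrocyte markers also all lay below 0 (median -0.062), with 0 called and 0 at an unadjusted p under 0.05 by limma. Their sums were 426 to 494 FPKM on the SD side and 412 to 548 FPKM on the contralateral side of the KCl mice, and 448 to 562 FPKM on the SD side and 482 to 642 FPKM on the contralateral side of the optogenetic mice. Of the 7 neuron markers 6 lay above 0 (median 0.0064), and Nefl, a neurofilament subunit, was called higher on the SD side (log2 difference 0.21 ± 0.030, limma adjusted p = 0.0267). The neuron markers summed to 956 to 1074 FPKM on the SD side and 950.2 to 1004 FPKM on the contralateral side of the KCl mice, and to 890.3 to 936 FPKM on the SD side and 884 to 899.5 FPKM on the contralateral side of the optogenetic mice. Their part in the member differences was not tested.

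**Figure D5:**
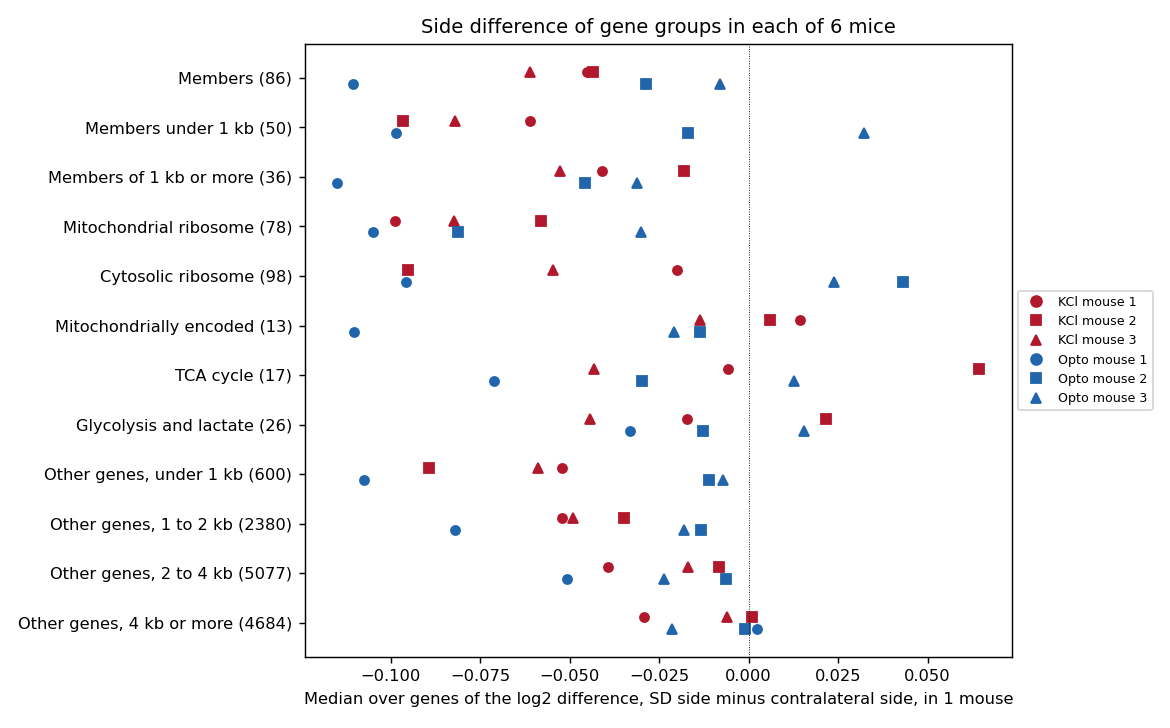
Median log2 difference between the SD and contralateral sides in each of 6 mice for the members, for other gene groups, and for all other genes split by transcript length (number of genes in brackets). KCl mice are red and optogenetic mice blue. The member medians span about the range of other genes under 1 kb. The medians of other genes do not lie nearer 0 with longer transcripts in every mouse. In optogenetic mouse 3 they are -0.0070 under 1 kb and -0.021 at 4 kb or more.

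Other lists of mitochondrial genes, and the cytosolic ribosomal protein genes, also had medians below 0 within the 6 mice, where 60% of all genes lay below 0. Of all genes, limma called 0.489% lower and 1.04% higher. At an unadjusted p under 0.05, 10.2% of all genes were lower and 4.87% higher. The 78 mitochondrial ribosomal protein genes had a median of -0.069, with 67 below 0 and 0 called by limma (15 lower and 1 higher at an unadjusted p under 0.05). The 98 cytosolic ribosomal protein genes had a median of -0.034, with 77 below 0 and 1 called, the pseudogene-named Rpl36a-ps1, higher (log2 difference 0.57 ± 0.072, limma adjusted p = 0.0150). The 45 assembly factors of the complexes had a median of -0.087 and 0 called by limma (7 lower and 0 higher at an unadjusted p under 0.05). Among 22 genes of mitochondrial protein import, with a median of -0.084, Timm22 and Timm13 were called lower. Timm22, the channel of the carrier translocase, had 2.72, 2.32 and 2.51 FPKM in KCl SD libraries, against 6.38, 5.52 and 5.52 FPKM in KCl contralateral libraries. Its optogenetic values were 2.75, 2.45 and 2.26 FPKM in SD libraries and 6.06, 5.37 and 2.70 FPKM in contralateral libraries (log2 difference over 6 mice -0.90 ± 0.11, limma adjusted p = 0.0134). Timm22 was also called lower in KCl SD against KCl contralateral libraries (log2 difference -1.06 ± 0.15, limma adjusted p = 0.0184). In that comparison 0.0308% of all genes were called lower. Timm13, a small chaperone of the intermembrane space, had a log2 difference of -0.27 ± 0.033 (limma adjusted p = 0.0134). In sham libraries Timm22 ranged from 3.72 to 5.64 FPKM in the KCl system and from 2.16 to 5.62 FPKM in the optogenetic system. Coq9, needed for ubiquinone synthesis, was the 1 gene called lower of 23 carriers and transport genes (log2 difference -0.23 ± 0.035, limma adjusted p = 0.0347).

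The 13 genes encoded by mitochondrial DNA, whose products join the same complexes, had a median of -0.023, near that of all genes, and 0 were called by limma (3 lower and 0 higher at an unadjusted p under 0.05). Over all genes, 10.2% were lower and 4.87% higher at this p within the 6 mice. Against sham, the same 13 genes had a median of 0.084 in the KCl system (1 of 13 below 0) and -0.12 in the optogenetic system (13 of 13 below 0), again with 0 called by limma (0 lower and 0 higher, and 3 lower and 0 higher, at an unadjusted p under 0.05). Of all genes, 59.1% and 56.2% lay below 0, with 5.49% and 5.01% lower and 2.44% and 3.72% higher at that p. Deviations from gene means over 18 libraries had medians of 0.27, 0.22 and 0.16 in KCl SD and 0.32, 0.17 and -0.061 in NaCl sham. They were -0.17, -0.27 and -0.28 in optogenetic SD and -0.25, -0.090 and -0.073 in sham. The groups overlapped in both systems, and of these KCl libraries only NaCl sham replicate 3 was below 0. The 17 TCA cycle genes had a median of -0.014 and the 26 genes of glycolysis and lactate -0.0057, with 0 called in either (at an unadjusted p under 0.05, 0 lower and 0 higher, and 5 lower and 2 higher). Of 17 regulators of mitochondrial biogenesis, with a median of -0.077, 0 were called by limma (4 lower and 0 higher at an unadjusted p under 0.05). Ppargc1a, the coactivator that drives respiratory gene expression, had a log2 difference of -0.095 ± 0.044 (limma adjusted p = 0.374).

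Whether the side difference depended on how SD was set off was tested as an interaction within the 6 mice. No gene was called by limma (0 of 12894), but 41 genes were called without KCl mouse 1 and 1 without KCl mouse 3, with 0 members among them. At an unadjusted p under 0.05 the KCl side difference was above the optogenetic one for 2 members and below it for 2, against 3.99% and 4.3% of all genes. The median over members was -0.0022, beside -0.0078 over all genes. Cox8a had 303, 314 and 313 FPKM in KCl SD libraries, against 335, 370.1 and 331 FPKM in KCl contralateral libraries. In the optogenetic mice it had 337, 310.0 and 304 FPKM on the SD side, against 316, 307 and 286 FPKM on the contralateral side. It was thus lower on the SD side in 3 of 3 KCl mice and higher in 3 of 3 optogenetic mice (difference of the log2 differences -0.22 ± 0.052, limma adjusted p = 0.563). Atp5a1 had the reverse pattern (0.20 ± 0.052, limma adjusted p = 0.563), and Atp5g2 had -0.27 ± 0.096 (limma adjusted p = 0.580). Over all genes, the side differences of the 3 KCl mice lay all above those of the optogenetic mice for 6.9%, and all below for 7.82%.

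Levels of 3 members separated the systems, no larger a share than over all genes. All 9 KCl-system libraries were above all 9 optogenetic-system libraries for Cox6b1 and Uqcrh, and below them for Uqcrc1. That is 2 members higher and 1 lower of 85 (2.35% and 1.18%), against 3.06% and 6.46% of all genes. Cox6b1, a subunit on the intermembrane side of complex IV, averaged 271 ± 22.3, 272 ± 11.1 and 250.2 ± 21.7 FPKM in KCl SD, KCl contralateral and NaCl sham cortex, and 205 ± 8.23, 198 ± 15.7 and 194 ± 6.22 FPKM in optogenetic SD, contralateral and sham cortex (SD, n = 3 each). Uqcrc1 averaged 28.9 ± 1.44, 28.2 ± 1.41 and 29.6 ± 0.318 FPKM in the same KCl-system groups, and 36.1 ± 0.830, 36.6 ± 1.16 and 37.6 ± 1.87 FPKM in the optogenetic ones. The systems differ in genotype, stimulus and possibly processing, and these cannot be told apart.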

How the data were processed

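RNA from dissected cortex was enriched with oligo(dT) beads, made into strand-specific libraries with a dUTP method and read from both ends on a NovaSeq instrument, per the labels' protocols. The authors deposited FPKM per library, with StringTie and GRCm38 named in the submitters' processing notes. No version, aligner or strand setting is given in the sources used here. The deposited group columns are headed FPKM but hold the mean of log2(FPKM + 1), and the authors' log2 fold change is their difference. The authors also deposited a linear fold change and p-value and q-value columns. The authors listed genes whose larger group mean reached 0.5 FPKM in a comparison.

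Genes averaging 0.5 FPKM or more were fitted as log2(FPKM + 0.5) with limma 3.58.1 (R 4.3.3, moderated variance with a trend), 9 libraries and 3 groups per system. The sides were also compared in 12 libraries with the mouse as a block and an interaction with the system. On this scale, log2(FPKM + 0.5), the change of low genes is understated. Calls are Benjamini-Hochberg adjusted p under 0.05 over all genes. The fits were tested on simulated data with known changes. Those changes were larger than the member differences described here and had no mouse effect, so that test does not cover differences this small. Pairing comes from the titles: left and right of 1 number are 1 mouse, while sham mice share only the number. Transcript lengths and copies came from GENCODE M21 and blastn 2.17.0, with Python 3.11.15 and pandas 2.3.3 used for the other steps.

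The members and lists were chosen with earlier results of these data known. Members are named where called, up to 8, or as the 3 smallest p of a comparison, as the highest and lowest of each complex, and as fixed isoform pairs. Of other lists, up to 3 called genes and Ppargc1a are named. Genes and complexes picked for other reasons (the sum of complex III, Ndufs1, Ndufv1, Uqcrfs1, Uqcrh, Atp5e, Sdhaf2, Sdhaf4 and the lists of genes lower in 6 of 6 mice) were chosen after their values were seen. Without read counts, no counting interval can be given. Alternatives were pseudocounts, filters, scalings, a constant prior variance, blocks and leaving out libraries or mice. For them, limma counts at an unadjusted p under 0.05 are given over the members alone.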

Additional observations from a re-analysis of the deposited data

Results flagged for a closer look

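In the side difference of named members over 6 mice, 2 values stood apart from the other mice by Dixon's test at the 95% level, which chance passes in about 1 of 20 sets, and 38 genes were looked at. Cox7b2 was 1.35 higher (log2) on the SD side of KCl mouse 1, where it had 1.45 FPKM on the SD side and 0.265 FPKM on the contralateral side, both near the lower limit of the tables. Ndufs3 was lower by -0.29 (log2) in KCl mouse 1, with 26.4 FPKM on the SD side and 32.4 FPKM on the contralateral side, and was lower in the other 5 mice too, by smaller amounts.

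Cox8a and Atp5a1 moved in opposite directions in the systems in every mouse, Atp5a1 by only 0.0081 in KCl mouse 3. Under a looser rule, the 3 KCl mice all above or all below the 3 optogenetic mice, 6.9% and 7.82% of all genes passed. The share of all genes with opposite signs in every mouse is not given. The KCl side difference minus the optogenetic one was -0.22 for Cox8a and 0.20 for Atp5a1, and neither passed the limma test of the interaction (adjusted p = 0.563 for both).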

How the results depend on the processing

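No member was called in any of the 6 comparisons within a system under any alternative run, the authors' q values included. Within the 6 mice, 1 member (Ndufa6) was called without the replicate block as with it, and 0 were called under median-of-ratios scaling (adjusted p = 0.0526) or a constant prior variance (adjusted p = 0.101), or without any 1 mouse (0 to 0). The log2 difference of Ndufa6 was negative throughout. The member median within the 6 mice ran from -0.070 to -0.037 when 1 mouse was left out and from -0.063 to -0.034 under other alternatives. For KCl SD against NaCl sham it ran from -0.055 to 0.037 when 1 library was left out, and the highest value was without NaCl sham replicate 1. The difference between the systems ran from -0.046 to 0.010, the lowest without optogenetic mouse 1. Uqcrb in optogenetic SD against sham turned to -0.023 under quantile normalization, and to -0.0055 and -0.025 without SD or sham replicate 1. Median-of-ratios scaling cut the members lower at an unadjusted p under 0.05 within the 6 mice to 13, and it and leaving out KCl SD replicate 3 turned the member median of KCl SD against NaCl sham to 0.011 and 0.0065. The interaction had 0 genes called, but 41 without KCl mouse 1. The causes were not tested.

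Counting Ndufa4 with complex I by its name moved the sums by the level of that gene. Complex I then summed to 1817 FPKM in KCl contralateral, 1687 FPKM in optogenetic SD and 1700.1 FPKM in optogenetic sham cortex. Complex IV summed to 1384 FPKM in KCl SD, 1456 FPKM in KCl contralateral, 1287.0 FPKM in optogenetic SD and 1275 FPKM in optogenetic sham cortex. With median-of-ratios scaling, complex II summed to 189.995 FPKM in optogenetic sham cortex.

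In fits of single systems, 0 members were called with the replicate block. It cannot move the median in a balanced design (-0.061 for KCl SD against contralateral with and without it), so that says nothing of stability, but it moved the members lower at an unadjusted p under 0.05 from 6 to 8 (9 libraries) or 13 (6 libraries) in KCl SD against contralateral, and from 7 to 7 or 11 in optogenetic SD against contralateral. Same-mouse sides deviated together only weakly, with correlations of 0.060, 0.065 and 0.040 in the KCl mice and 0.14, -0.089 and 0.017 in the optogenetic mice. Depth is unknown, so the part of it in small differences cannot be judged.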
